A study of Mus musculus with 10 samples.

Results

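Monocytes and macrophages of the developing mouse tendon enthesis are described here from single-cell RNA counts at postnatal days 11 and 18 (P11 and P18). The cells were chosen by their own transcripts: 500 or more detected genes, a mitochondrial share of counts up to 10%, at least 1 UMI (counted molecule) of Csf1r, at least 2 UMIs of C1qa and Lyz2 together, and 0 UMIs of Cd79a, Retnlg and Col2a1. This gave 427 members among 8348 kept cells, 241 of 2952 at P11 and 186 of 5396 at P18. The enthesis is the graded tissue that anchors a tendon, here that of the supraspinatus muscle of the shoulder, in bone.

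The series holds 10 libraries. Of these, 3 are droplet libraries of whole entheses from wild-type C57BL/6 mice at P11, P18 and P56, and 7 are 96-well plates from Gli1CreERT;Ai14 mice at P7 to P42 that received tamoxifen at P5 and P7. For each droplet library, entheses of several mice were combined and erythrocytes removed by lysis. The sort kept cells that stained neither for Cd45 (the leukocyte surface protein encoded by Ptprc) nor with DAPI, which marks dead cells. The sort thus selected against the cell class described here, and shares of cells below are shares of what the sort let through. Each age is 1 library of pooled animals, so no test between ages was possible, all intervals are exact 95% intervals that cover counting error only, the limit given for a count of 0 is 3 counts of the total, and differences of age, animals, sort and library cannot be told apart.

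Monocytes are made in bone marrow from granule-bearing myeloid progenitors and leave it through the chemokine receptor Ccr2. Classical monocytes carry Ly6C on their surface, and in tissue they can become macrophages or antigen-presenting cells. Resident macrophages of connective tissue are partly seeded before birth, take up dead cells and matrix debris, and are known for Mrc1, Lyve1, Folr2 and the C1q complement genes. Both depend on Csf1r, the receptor for Csf1 and Il34.

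The values that chose the members are given as description. Csf1r was at a median of 9 UMIs per member at P11 (1 to 39) and 2 at P18 (1 to 18), and Lyz2, which encodes lysozyme, at 88 (1 to 710) and 120.5 (4 to 526). C1qa had a median of 46 UMIs at P11 (0 to 133) and 0 at P18 (0 to 90). Near the limits of the rule, 13 members at P11 and 67 at P18 held exactly 1 UMI of Csf1r. Another 32 and 158 kept cells had at least 2 UMIs of the C1qa and Lyz2 pair with no Csf1r, and 3 and 7 cells with Csf1r had 1 UMI of the pair. Requiring 0 UMIs of Col2a1, a cartilage collagen, removed 162 cells at P11 and 123 at P18, and 113 and 91 of them held a single UMI. C1qa was detected in 90.7% and 26.0% of those removed cells, against 91.3% and 34.9% of members. Retnlg was found in 3 otherwise eligible cells at P11 and 108 at P18, and Cd79a in 4 and 34. At P18, 38 of the Retnlg cells and 14 of the Cd79a cells held a single UMI. C1qa was detected in 7.41% and 17.6% of these P18 cells. The exclusion genes together removed 165 cells at P11 and 215 at P18.

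Markers of myeloid cells or leukocytes that the rule did not use were present in most members. They do not mark monocytes and macrophages alone. Tyrobp, an adaptor of myeloid receptors, was detected in 239 of 241 members at P11 and 183 of 186 at P18. Fcer1g, the gamma chain of Fc receptors, was detected in 99.6% and 99.5% of members. Ptprc was detected in 85.1% and 85.5% of members, at 242 CPM (224 to 261) and 252 CPM (231 to 275), although the sort took cells without Cd45 staining. CPM, the usual scaled count, is a gene's UMIs relative to all UMIs summed over the members of a library. Spi1, the transcription factor PU.1 of the myeloid lineage, was at 410.5 and 388 CPM, against 25.7 and 172 CPM in all other kept cells. Adgre1, a macrophage marker outside the rule, was detected in 92.5% of members at P11 and 56.5% at P18.

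The members held 2764937 UMIs at P11 and 2032425 at P18, with medians of 10394 and 7943.5 UMIs and 3034 and 2321.5 genes per cell. The median mitochondrial share of a member was 6.08% at P11 and 2.14% at P18. Xist was detected in 71.8% and 34.9% of members and Y-linked genes in 19.5% and 43.0%. P11 and P18 had 4 cell barcodes in common, none of them of a member. Genes with near-identical copies (Ly6c2, Hspa1a, Hspa1b) may share reads, and how such reads were counted is not given in the sources used here.

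The share of members among kept cells was 8.16% at P11 (7.20 to 9.21) and 3.45% at P18 (2.98 to 3.97), 2 intervals that did not overlap. With Col2a1 allowed the shares were 13.5% and 5.02%. With cells limited to 1000 or more genes and a mitochondrial share up to 5%, they stood closer, at 5.53% and 3.90%. These rest on 55 and 175 members. At P56 none of 5131 kept cells met the rule, for which 3 counts allow a share of up to 0.0585%. That library held 14 UMIs of Csf1r, 2 of C1qa, 1 of Tyrobp and none of Ptprc. No well of the 7 Gli1-lineage plates met the rule, and Csf1r had 0 counts on each plate, of 86 to 96 wells.

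Most members at P11 carried C1q complement transcripts and most at P18 carried transcripts of Ly6c2, Plac8, Hp or Chil3, genes of monocytes, in their place. C1qa, a subunit of the complement protein C1q, was detected in 220 of 241 members at P11 (91.3%, 87.0 to 94.5) and in 65 of 186 at P18 (34.9%). After each member was thinned to 2000 UMIs, the values were 88.8% of 233 (84.1 to 92.6) and 34.1% of 182 (27.2 to 41.4). Ly6c2, the gene of the monocyte antigen Ly6C, went the other way, with 4.56% of members at P11 and 49.5% at P18, or 3.43% (1.49 to 6.65) and 43.4% (36.1 to 50.9) after thinning. Background was read in stromal comparison cells of the same libraries, picked for at least 10 UMIs of Col1a2 and 0 UMIs of Csf1r, Tyrobp and Ptprc. In these, thinned likewise, C1qa was found in 0.428% and 0.0905% and Ly6c2 in none at P11 and 0.0905% at P18, at unthinned medians of 14212 and 10092 UMIs.

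Detection of the C1q genes (C1qa, C1qb, C1qc) and of 4 monocyte genes (Ly6c2, Plac8, Hp, Chil3) was close to mutually exclusive. These 4 were picked from a list of 17 classical monocyte genes, and the list as a whole was not split in this way. Its sum at P11 was 10547 CPM in members with C1qa and 15610 CPM in those without. At P18 it was 13413 and 16248 CPM. At P11, 224 members had C1q transcripts only, 9 had the monocyte genes only, 6 had both and 2 had neither. At P18 the numbers were 58, 110, 13 and 5. Cells with at least 2 UMIs of each group numbered 2 at P11 and 4 at P18, and the plot of C1q against monocyte genes per cell shows most members lying along one axis or the other.

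**Figure D1:**
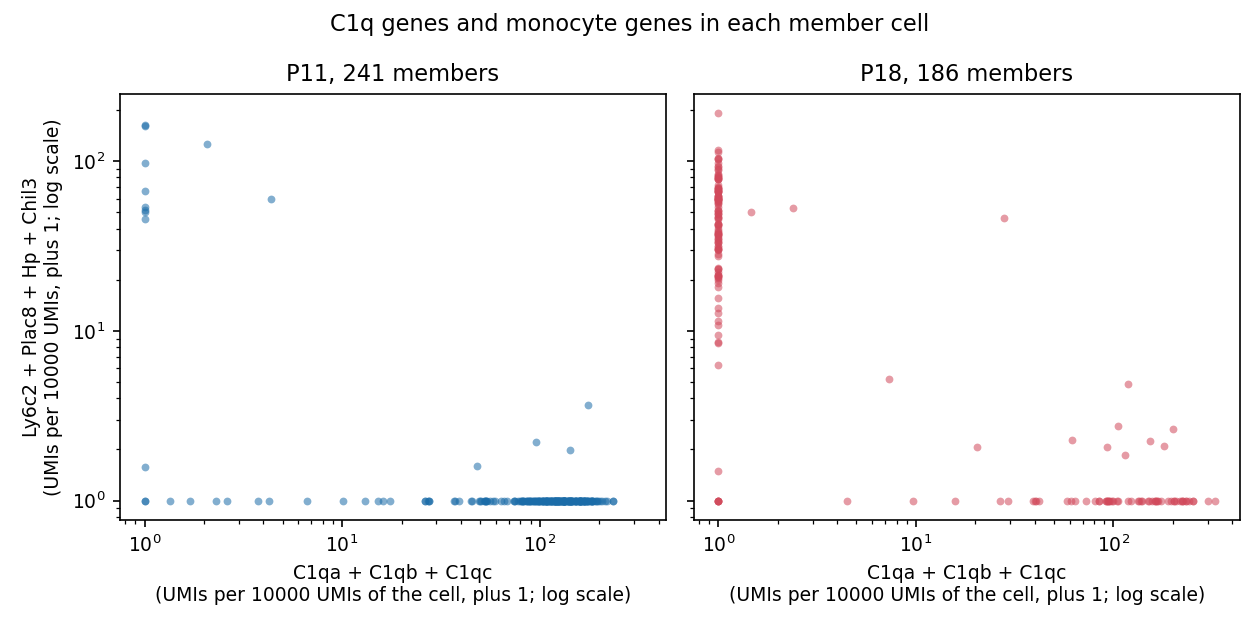
Each point is a member cell; the x axis gives UMIs of C1qa, C1qb and C1qc and the y axis UMIs of Ly6c2, Plac8, Hp and Chil3, scaled to the cell's total plus 1, on log axes, with P11 (241 members) at left and P18 (186) at right. Most P11 members lie along the C1q axis, whereas 110 of the 186 P18 members carry only the monocyte genes.

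The resident macrophage genes were lower in the P18 members as a whole. Of the 20 listed genes 19 reached 100 UMIs over both libraries, and 17 of these were at least 2-fold lower at P18 and none 2-fold higher. Over all 5572 genes with 100 UMIs, 14.6% were at least 2-fold lower and 6.62% at least 2-fold higher, and the median gene stood at -0.14 (log2 ratio of CPM, P18 over P11), against -2.04 for the resident list. Mrc1, the mannose receptor, was at 1250.3 CPM at P11 (1209 to 1293) and 207 CPM at P18 (187 to 227), which is 6.05-fold lower. Lyve1, a hyaluronan receptor, went from 608 CPM (64.3% of members) to 142 CPM (19.9%). Folr2, the folate receptor beta, was at 719 and 146 CPM, and Stab1, a scavenger receptor, at 609.8 and 88.6 CPM. Scaling by the median of gene ratios moved the median gene from -0.14 to 0 and gave 502 genes higher and 667 lower, against 369 and 813 here. The resident median was -1.18 when cells were thinned before selection, and all alternatives kept it below 0.

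The rest of the list had the same direction. Pf4, a chemokine also made by platelets, was at 5662 CPM (5574 to 5751) at P11 and 1420.5 (1369 to 1473) at P18. Adgre1, which encodes F4/80, was at 511 and 124 CPM, and Timd4, a receptor for dying cells, at 25.3 (19.7 to 32.0) and 9.35 (5.63 to 14.6), below the limit of 100 UMIs. Clec10a and Apoe were the pair that stayed within 2-fold, at log2 ratios of -0.83 and -0.91. Maf, a transcription factor of macrophage identity, was at 1039 and 199 CPM, while the broader myeloid factors Spi1 and Irf8 had log2 ratios of -0.08 (-0.21 to 0.05) and -0.14 (-0.45 to 0.17).

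Of 9 complement genes 5 were 2-fold lower at P18 and 1 was higher, against 14.6% and 6.62% of all genes, with a median log2 ratio of -1.63. C1qa, which the choice of members used, is 1 of these 5 and enters the median, so 4 of the other 8 were lower. C1qb was at 3531 CPM (3461 to 3602) at P11 and 1139 (1093 to 1186) at P18, and C1qc at 2921 (2858 to 2985) and 807 (768 to 847). The receptor gene C3ar1 was at 421 and 115 CPM. C3, the central component, was the exception, at 13.02 CPM (9.12 to 18.0) at P11 and 126 (111 to 142) at P18, and among P18 members it was at 9.94 CPM in those with C1qa and 164 CPM in those without.

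The genes C1qb and C1qc are neighbours on chromosome 4 and were both lower at P18, so the 150 bases before their start sites are shown side by side, from RefSeq on GRCm38.p6, minus strand, 5′ to 3′. Capitals mark GAGGAA, a core of binding sites of PU.1-type factors, searched on both strands. C1qb is at chr4:136886201-136886350 and C1qc at chr4:136892915-136893064.
C1qb: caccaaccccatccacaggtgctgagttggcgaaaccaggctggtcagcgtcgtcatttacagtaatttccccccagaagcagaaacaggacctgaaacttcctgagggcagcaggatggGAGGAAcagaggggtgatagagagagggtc
C1qc: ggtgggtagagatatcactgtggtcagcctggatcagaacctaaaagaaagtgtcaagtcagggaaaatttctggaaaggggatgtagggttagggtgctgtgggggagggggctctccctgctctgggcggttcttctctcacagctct
The letters occurred once in the C1qb window, 30 bases before the start, and not in the C1qc window. Of 32475 RefSeq windows of this length, 14.6% held them, so the match describes the sequence and no more.

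Monocyte genes were higher in the P18 members. Of the 17 classical monocyte genes, all with at least 100 UMIs, 11 were at least 2-fold higher at P18 and none 2-fold lower, against 6.62% higher over all genes, with a median log2 ratio of 2.54. This list, like the others, was chosen with earlier results of these data known, so its count is a description. Ly6c2 was at 71.6 CPM (62.0 to 82.3) at P11 and 1227 (1179 to 1276) at P18, or 17.1-fold higher. Plac8 was at 188 and 1738 CPM, and Hp (haptoglobin) at 21.7 and 521 CPM. Thbs1, a matrix glycoprotein, was at 42.3 CPM in 6.22% of members and 1174 CPM in 44.6%. Of the P18 UMIs, 1654 of 2493 for Ly6c2 and 1922 of 3532 for Plac8 were in 27 members with granule proteases, described below. The other P18 members had Ly6c2 at 639 CPM and Plac8 at 1227 CPM. Without the granule-protease members of both ages the median of the list was 2.90.

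The receptor that brings monocytes out of the marrow differed less: Ccr2 was at 119 CPM (107 to 133) and 224 CPM (204 to 245), a log2 ratio of 0.91, and was detected in 14.5% and 53.8% of members. Among members without C1qa it was the lower of the pair of ages, at 630.3 CPM at P11 and 275 CPM at P18. S100a4, S100a6 and Ifi27l2a had log2 ratios of -0.76, -0.23 and -0.73. Of 4 nonclassical monocyte genes with 100 UMIs, Itgal, Spn and Pglyrp1 (also a granule gene of neutrophils) were 2-fold higher at P18 and Nr4a1 was not. Over all genes 6.62% were 2-fold higher. Ace, Treml4 and Adgre4, more particular to nonclassical monocytes, had 4, 10 and 16 UMIs at P11 and 23, 24 and 30 at P18. With cells limited to 1000 or more genes and a mitochondrial share up to 5%, only 55 members remained at P11 and the classical monocyte median was 1.15.

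A small set of P18 members carried the granule proteases of early myeloid cells. Mpo (myeloperoxidase) was at 1.45 CPM (0.394 to 3.70) in 2 members at P11 and 1074 CPM (1029 to 1119.6) at P18, and Elane (neutrophil elastase) at 2.89 and 1371 CPM. Prtn3 (proteinase 3) was at 11.6 and 1698 CPM. Ctsg (cathepsin G) had 0 UMIs at P11 and was at 563 CPM at P18. With the 0 entered at 3 UMIs it was 519-fold higher, a log2 ratio of 9.02, and the exact lower limit of the log2 ratio was 8.72. In all, 5 of 6 tested genes of the granule list were 2-fold higher at P18 and none lower, against 6.62% higher over all genes.

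These transcripts came from few cells. Members with at least 5 UMIs of Mpo, Elane, Prtn3 and Ctsg together, a limit chosen after the values were seen, numbered 2 of 241 at P11 and 27 of 186 at P18 (14.5%, 9.79 to 20.4), and the 27 held 99.7% of the 9565 UMIs of these genes. None of the 27 had a UMI of C1qa, for which 3 counts allow up to 11.1% of such cells with a UMI, and all of them had a UMI of Ly6c2. Compared with the other P18 members they had lower Csf1r (83.3 against 444 CPM) and Lyz2 (6529 against 16409 CPM). They had higher Ms4a3, a marker of granulocyte-monocyte progenitors (567 against 0 CPM), Top2a (390.2 against 83.8 CPM) and Camp, a gene of neutrophil secondary granules (1047 against 16.8 CPM). Their median depth was 24272 UMIs, against 7943.5 over all P18 members.

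Prtn3 and Elane are neighbours on chromosome 10, and the 150 bases before each start site are shown because both genes were on in the same few members, from RefSeq on GRCm38.p6, plus strand, with capitals as above. Prtn3 is at chr10:79879517-79879666 and Elane at chr10:79886162-79886311.
Prtn3: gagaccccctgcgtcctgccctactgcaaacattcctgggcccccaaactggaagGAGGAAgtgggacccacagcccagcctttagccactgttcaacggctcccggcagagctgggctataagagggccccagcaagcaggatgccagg
Elane: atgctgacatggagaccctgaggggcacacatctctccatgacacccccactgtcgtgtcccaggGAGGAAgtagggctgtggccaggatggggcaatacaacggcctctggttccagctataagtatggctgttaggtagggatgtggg
GAGGAA occurred once in each, 95 and 85 bases before the start, and not in the window of Mpo. A C/EBP-type motif, TTGCNNAA, was in none of the 5 windows searched and in 5.47% of all windows.

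The P18 library was rich in neutrophil transcripts, and the members' levels of these need that measurement beside them. All 7 neutrophil genes with 100 UMIs were 2-fold higher in the P18 members, against 6.62% of all genes. S100a8 was at 167 and 3785 CPM and S100a9 at 2.17 and 2393 CPM. All other kept cells of the P18 library were at 25877 CPM for S100a8, and 42.2% of stromal comparison cells had a UMI of it (10.3% after thinning), against 60.2% of members (29.1%). Among P18 members, S100a8 was at 57.7 CPM in those with C1qa and 5011 CPM in those without. Of its 7693 UMIs in P18 members, 6569 were in the 27 granule-protease members, none of which had C1qa. It was at 9121 CPM in these and 857 CPM in the other P18 members. Ly6g and Retnlg, the latter excluded by the rule, were at 0 in members of both ages, and Cxcr2 had 1 and 2 UMIs.

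**Figure D2:**
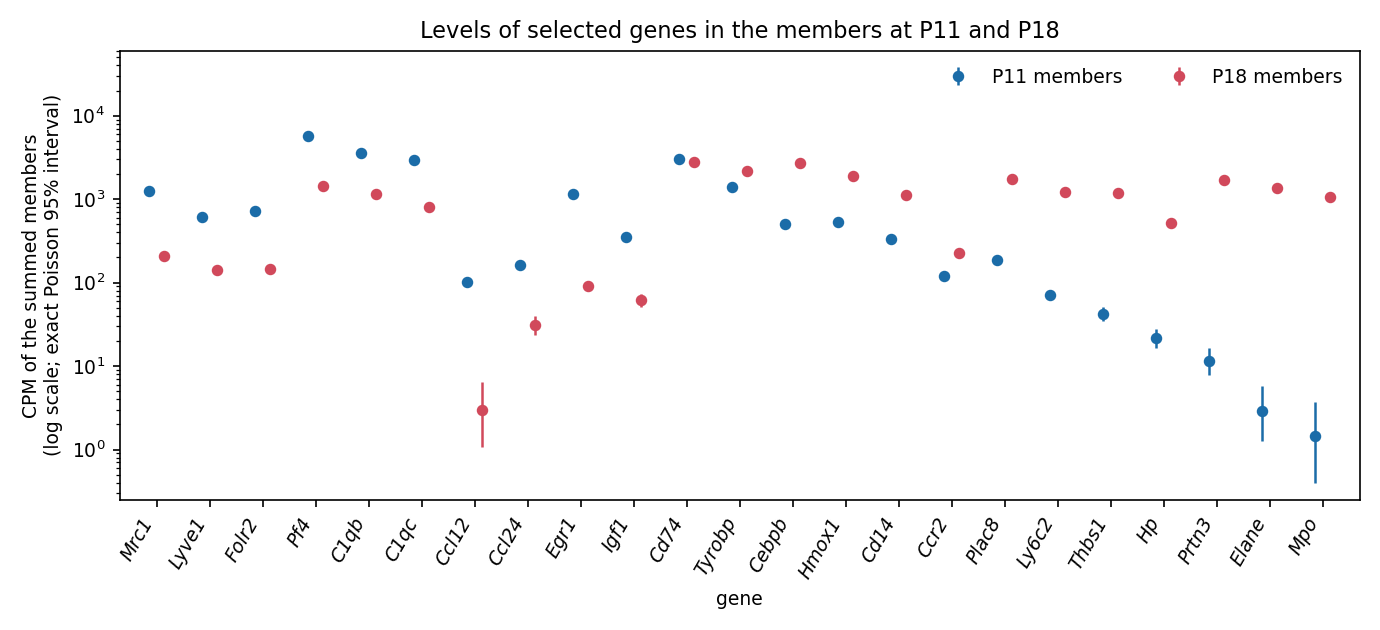
CPM of 23 genes in the summed members of P11 (blue) and P18 (red), on a log axis, with exact Poisson 95% intervals, which are smaller than the symbols for most genes. Resident macrophage, complement and chemokine genes at left are lower at P18, Cd74 is nearly level at 3022 and 2768 CPM, and monocyte and granule genes at right are higher at P18.

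Members with C1qa detected differed between the libraries in a smaller share of genes than all members did. Among members with C1qa detected, 4148 genes had 100 UMIs, of which 2.46% were 2-fold higher and 4.27% 2-fold lower at P18. Of the 19 resident macrophage genes 1 was 2-fold lower (Fcrls, 224 and 111 CPM) and the median log2 ratio was -0.27, beside -0.10 for all genes. Pf4 was at 6282 and 5732 CPM, Lyve1 at 675 and 575 CPM, and Mrc1 at 1366 and 811 CPM. None of the 8 complement genes, 16 lysosome genes or 7 classical monocyte genes with 100 UMIs passed 2-fold. The other 10 monocyte genes were below that limit in these members, among them Plac8 at 2.01 and 69.6 CPM (log2 ratio 5.12, 3.76 to 6.83) and Vcan, a matrix proteoglycan, at 21.7 and 1.99 CPM. Members without C1qa, 21 at P11 and 121 at P18, had 9.97% of 2418 genes 2-fold higher and 6.66% lower at P18.

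**Figure D3:**
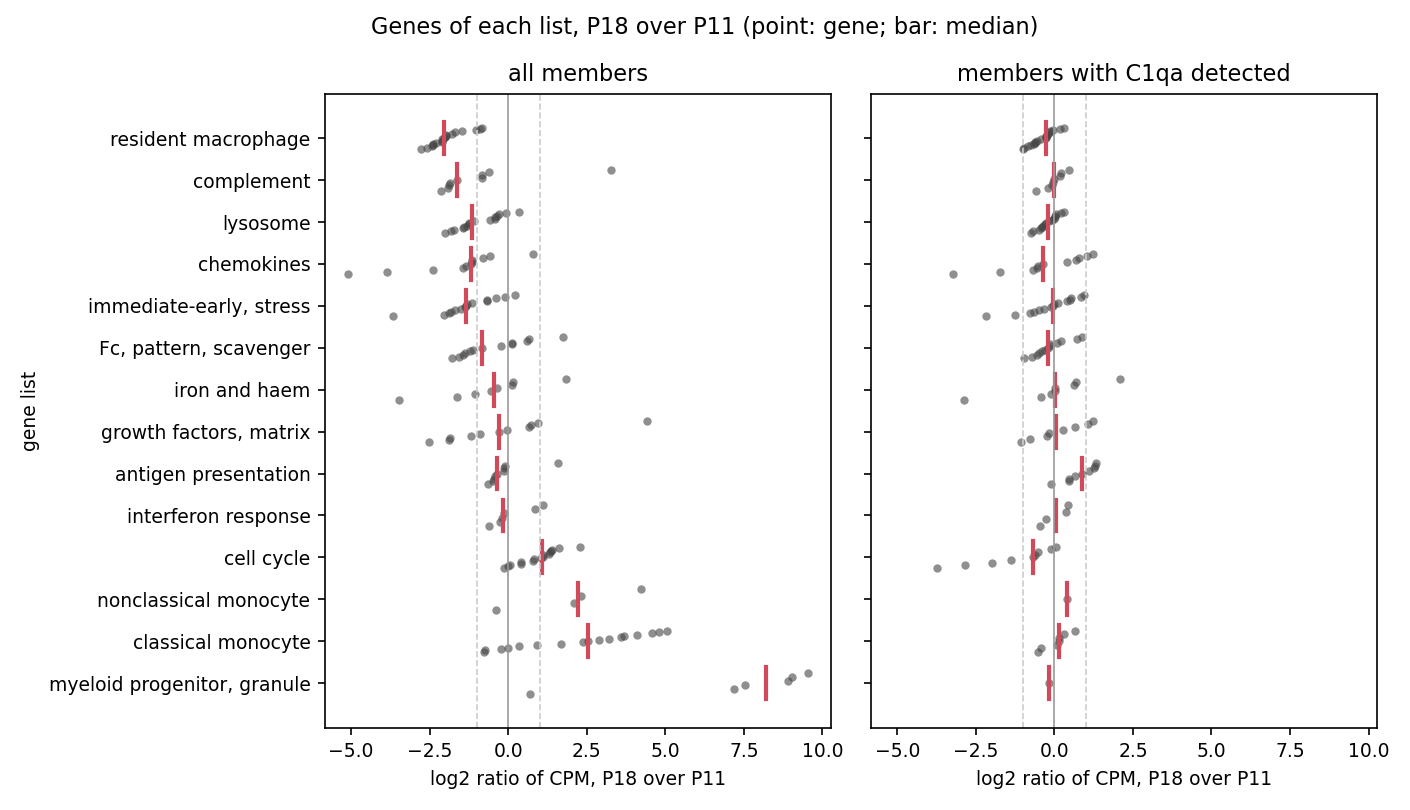
Each point is a gene with at least 100 UMIs, placed by its log2 ratio of CPM, P18 over P11, in rows by gene list, for all members (left) and members with C1qa detected (right); red bars are medians and dashed lines mark 2-fold. The resident macrophage median is -2.04 at left and -0.27 at right, and the classical monocyte median 2.54 over 17 genes and 0.13 over the 7 that had 100 UMIs at right.

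Within each library, members with and without C1qa were compared with each other. Of 2584 genes with at least 100 UMIs over the members of each library, 7.78% were at least 2-fold higher in C1qa-detected members at both ages and 3.1% in the others. The 10 with the largest ratio on the C1qa side were Pf4, C1qc, Aqp1, Cbr2, Folr2, Cxcl1, Stab1, Lyve1, Gas6 and C1qb. Aqp1, a water channel, was at 1164 CPM with C1qa and 3.66 without at P11, and at 1058 and 4.58 at P18. Gas6, a ligand that bridges dying cells to Mertk, was at 606 and 0 CPM at P11 and 507 and 1.31 at P18. The 10 on the other side were Ly6c2, S100a8, Thbs1, Plac8, Napsa, Ltb4r1, Gsr, Msrb1, Cytip and Ube2c. Napsa, an aspartic protease, was at 491 CPM without C1qa and 11.2 with it at P11, and at 510.0 and 35.8 at P18, and Ltb4r1, a leukotriene B4 receptor, at 308 and 11.6, then 150.4 and 13.9.

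Some genes differed between the ages among C1qa-detected members, where 65 cells represent P18; Cxcr4, Retnla, Gmnn, Lig1 and Mcm6 are named here after their values were seen. Cebpb, a transcription factor of myeloid activation, was at 426 CPM at P11 and 2139 at P18 in members with C1qa (log2 ratio 2.33, 2.21 to 2.45), and at 1154 and 2901 CPM in members without it. Hmox1, which degrades haem, was at 558 and 2389.9 CPM in members with C1qa, and the chemokine receptor Cxcr4 at 103 and 507 CPM, in 44.5% and 76.9% of cells. Cebpb was also higher at P18 in all other kept cells, at 253 and 762 CPM. In stromal comparison cells it was at 217 and 1031 CPM (log2 ratio 2.25). Cxcr4 was at 15.97 and 233 CPM in all other kept cells (log2 ratio 3.87) and 1.46 and 6.93 CPM in stromal comparison cells. In members without C1qa it was at 374 and 350 CPM. Hmox1 differed less outside the members, at 83.6 and 179 CPM in all other kept cells. Retnla was at 432 and 2294 CPM in members with C1qa, but was found in 19 of 220 and 7 of 65 of them. The 3 highest cells held 92.5% of its P18 UMIs there.

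Other genes were lower at P18 among C1qa-detected members. Ccl12, a monocyte-attracting chemokine, was at 112 CPM in 28.6% of C1qa-detected members at P11 and 11.9 CPM in 4.62% at P18 (log2 ratio -3.24, -4.69 to -2.10). Slc40a1, the iron exporter ferroportin, was at 73.4 and 9.94 CPM in these members, while all other kept cells had 10.7 and 22.8 CPM. Gmnn, Lig1 and Mcm6, which act in DNA replication, were at 51.4, 42.9 and 69.8 CPM at P11 and 7.95, 7.95 and 19.9 CPM at P18.

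Antigen presentation genes did not move one way, and their ratio depended on which members were summed. Over all members Cd74, the class II invariant chain, was at 3022 CPM (2957 to 3087) and 2768 CPM (2696 to 2841), and H2-Aa at 861 and 675 CPM. None of 9 tested genes was 2-fold lower and 1, Cd52, was 2-fold higher, against 14.6% and 6.62% of all genes, and the list's median log2 ratio was -0.35. In C1qa-detected members the median was 0.89, with 4 of 9 genes 2-fold higher (2.46% of all genes): H2-Aa at 529.7 and 1286 CPM, H2-Ab1 at 508 and 1231, H2-Eb1 at 539.7 and 1147, and Cd74 at 1944 and 4877. In members without C1qa it was -2.63, with Cd74 at 12862 CPM at P11 and 2075 CPM at P18. Both groups rest on few cells here: 26 members at P11 and 20 at P18, described below, held 99.5% and 97.9% of the class II UMIs. C1qa was detected in 15 of the 26 and 10 of the 20, and members without C1qa numbered 21 and 121. Over all members the median was also above 0 with per-cell averaging (0.11), thinning before selection (0.30) or without the granule-protease members (0.19).

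Class II transcripts were concentrated in about the same share of members at both ages. Members with at least 50 UMIs of H2-Aa, H2-Ab1, H2-Eb1 and Cd74 together, again a limit set after the values were seen, numbered 26 of 241 at P11 (10.8%, 7.17 to 15.4) and 20 of 186 at P18 (10.8%, 6.69 to 16.1), and held 99.5% and 97.9% of these UMIs. C1qa was detected in 15 of the 26 and 10 of the 20. At P11 they had 647 CPM of Ccr2, against 30.03 in the other members, and 135 CPM of the integrin gene Itgax, against 2.54. Lyve1 had no UMI in them, against 711 CPM, and Folr2 was at 4.99 against 840.4 CPM. At P18 the same comparison gave 274 and 218 CPM for Ccr2 and 26.1 and 157 CPM for Lyve1. Of 10 dendritic cell genes 1 reached 100 UMIs over all members, Irf4, a transcription factor, at 32.5 CPM (26.2 to 40.0) and 5.90 CPM (3.05 to 10.3). Cd209a, a lectin of monocyte-derived dendritic cells, had 17 UMIs at P11, all in the class II members, and was at 143 CPM in these and 8.88 CPM in the others at P18. Flt3 had 4 and 20 UMIs over all members, Zbtb46 had 5 and 4, and Xcr1 had none.

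**Figure D4:**
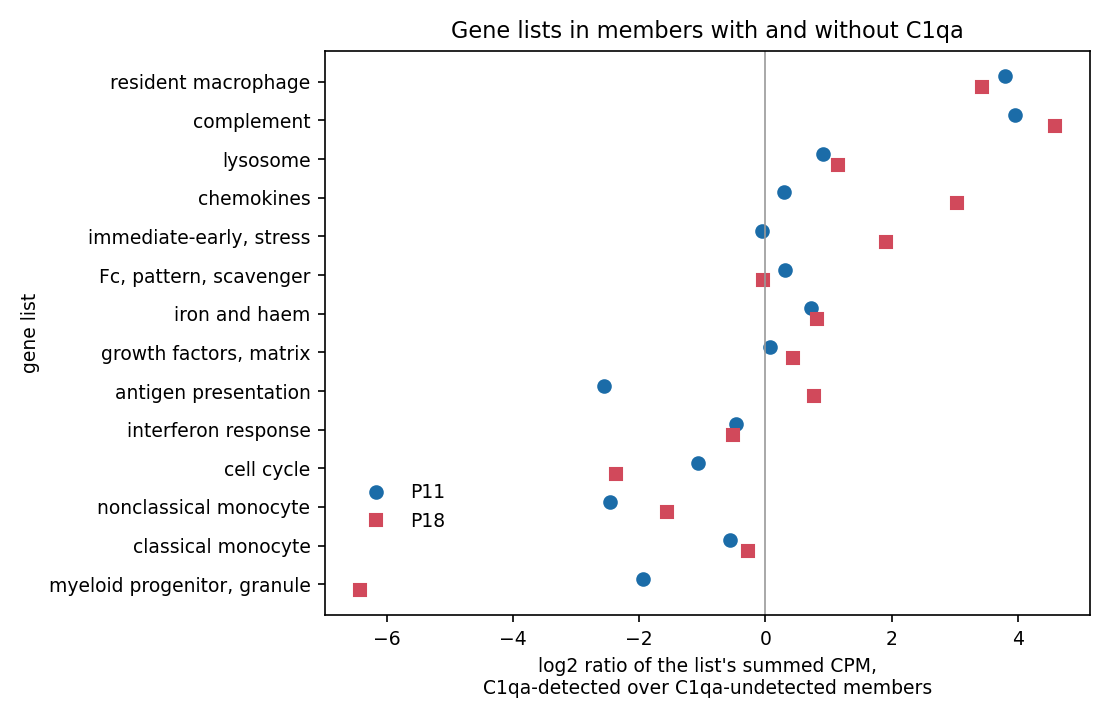
Log2 ratio of each list's summed CPM in C1qa-detected over C1qa-undetected members at P11 (circles) and P18 (squares); C1qa itself is in the complement list. Resident macrophage and complement genes lie right of 0 and granule genes left of 0 at both ages, and antigen presentation lies at -2.56 at P11 and 0.77 at P18.

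Of 11 chemokine genes 8 were at least 2-fold lower in the P18 members and none higher, against 14.6% and 6.62% of all genes, at a median log2 ratio of -1.20. Cxcl2, a neutrophil attractant, was at 2969 CPM (2905 to 3034) at P11 and 1294 (1245 to 1344) at P18, and was detected in 66.8% and 29.6% of members. Ccl24, an eosinophil attractant, was at 163 and 31.0 CPM, and Cxcl10, an interferon-induced chemokine, at 156 and 10.8 CPM. Among members with C1qa the list was split, with Ccl2 (749 and 1553 CPM) and Ccl6 (215 and 503 CPM) 2-fold higher at P18 and Ccl12 and Cxcl10 2-fold lower, against 2.46% and 4.27% of all genes. At P18 the summed list stood at 8947 CPM in members with C1qa and 1092 in those without, and at P11 at 6255 and 5079 CPM.

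Of the inflammatory mediators, Il1b was 8.26-fold higher at P18 (14.5 and 119.6 CPM) and Tnf 2.02-fold lower (240.2 and 119 CPM), and 4 tested genes lay between. Over all genes, 6.62% were 2-fold higher and 14.6% 2-fold lower. Tnf was at 259 and 449 CPM in C1qa-detected members, the opposite order. Arg1 and Nos2, textbook genes of alternatively and classically activated macrophages, had 0 UMIs in members of both ages, which allows up to 1.09 CPM at P11 and 1.48 CPM at P18.

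Of 15 immediate-early and stress genes 10 were at least 2-fold lower in the P18 members and none higher, against 14.6% and 6.62% of all genes, with a median log2 ratio of -1.33. Egr1 was at 1157 CPM (1117 to 1197) and 91.5 CPM (78.8 to 106), Fos at 1834 and 524 CPM, and Hspa1a, a heat-shock protein gene, at 955 and 293 CPM. In C1qa-detected members 2 of 15 were 2-fold lower, against 4.27% of all genes, Egr1 (1269.6 and 278 CPM) and Btg2 (472 and 199 CPM), and the median was -0.05. Stromal comparison cells held Egr1 at 1095 and 1061 CPM, and the summed list was at 11284 and 13952 CPM in those cells and 12879 and 5532 CPM in members.

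Genes of uptake and digestion are read against the 14.6% of all genes that were 2-fold lower at P18 and the 6.62% that were higher. Of 16 lysosome genes 9 were 2-fold lower and none higher. Ctsb (cathepsin B) was at 2929.9 and 886 CPM and Cd68 at 744 and 183 CPM, whereas Ctsz and Npc2 were within 2-fold at log2 ratios of -0.08 (-0.19 to 0.04) and 0.34 (0.25 to 0.44). Of 13 Fc, pattern and scavenger receptor genes 6 were lower, among them Cd36 (660.0 and 191 CPM), and 1 was higher, the endotoxin co-receptor Cd14, at 335 CPM (314 to 358) and 1110.5 CPM (1065 to 1157). Of 8 iron and haem genes 3 were lower and 1, Hmox1, was higher, at 533 and 1889 CPM, and the ferritin gene Fth1 was at 6796 and 7319 CPM.

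Growth factor and matrix genes were mixed, with 4 of 11 at least 2-fold lower at P18 and 1 higher, against 14.6% and 6.62% of all genes. Igf1, a growth factor for connective tissue, was at 356 CPM (334 to 378) at P11 and 61.5 (51.2 to 73.3) at P18, in 76.8% and 24.7% of members, and at 394 and 233 CPM in C1qa-detected members. All other kept cells had Igf1 at 456 and 51.8 CPM. Tgfb1 was level at 265 and 259 CPM, and the collagenase gene Mmp8, which neutrophils also carry, was at 3.25 and 69.9 CPM. The ligands of Csf1r were low in the members, Csf1 at 5.06 and 9.35 CPM and Il34 with 5 and 0 UMIs, and all other kept cells had Csf1 at 54.6 and 12.4 CPM.

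Osteoclast genes, which the same lineage can switch on at bone, were sparse: 6 of 17 reached 100 UMIs, of which 3 were 2-fold lower at P18 and 1 was higher, against 14.6% and 6.62% of all genes. Tnfrsf11a, the receptor RANK, was at 56.8 CPM (48.2 to 66.4) and 12.8 CPM (8.36 to 18.7), and Acp5 at 13.4 and 21.2 CPM. Acp5 was detected in 2.15% and 3.30% of thinned members and in 2.66% and 2.90% of thinned stromal comparison cells, so its share in members was that of the background. Ctsk was at 26.0 and 9.35 CPM, below the 201 and 46.4 CPM of all other cells, and Calcr and Oscar had 0 UMIs at both ages. Of 6 interferon-response genes with 100 UMIs, 1 was 2-fold higher at P18 (Ly6e, 286 and 617 CPM) and none lower, against 6.62% and 14.6% of all genes.

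Of 16 cell-cycle genes 9 were 2-fold higher at P18 over all members and none lower, against 6.62% and 14.6% of all genes, with Top2a at 73.8 and 192 CPM and Mki67 level at 124 and 123 CPM. Of the 9 with 100 UMIs in C1qa-detected members 4 were 2-fold lower at P18 and none higher, against 4.27% and 2.46% of all genes, with Mki67 at 119.6 and 45.7 CPM (log2 ratio -1.39, -2.07 to -0.77). Members with at least 2 of 8 cycling genes after thinning were 15 of 233 at P11 (6.44%, 3.65 to 10.4) and 31 of 182 at P18 (17.0%, 11.9 to 23.3). Among C1qa-detected members they were 13 of 212 (6.13%, 3.31 to 10.3) and 0 of 63, for which 3 counts allow a share of up to 4.76%, inside the interval of P11. Without thinning the shares were 16.6% and 23.1% of all members, and 15.9% and 7.69% of C1qa-detected members. At P18 Top2a was at 390.2 CPM in the 27 granule-protease members and 83.8 CPM in the other members. The summed cell-cycle list was at 2102 and 4713 CPM in members at P11 and P18, and at 1197 and 6506 CPM in all other kept cells.

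Among genes found in at least 10% of members and at 2 times the level of all other kept cells of the library where they were higher, those with the largest ratio of P18 to P11 included the 4 granule proteases, Thbs1, Mefv, Slc7a11, Ly6c2, Dusp5, Mgst1, Gsr, Cytip, Gpr35 and Sirpb1c. S100a8 and S100a9, described above, did not meet the limit on other cells. Slc7a11, the cystine importer, was at 6.87 and 118 CPM, Mgst1, a glutathione transferase, at 25.0 and 323 CPM, and Gsr, glutathione reductase, at 45.6 and 544 CPM. Mefv, which encodes the inflammasome sensor pyrin, was at 1.81 (0.587 to 4.22) and 47.7 CPM (38.7 to 58.2). Slc7a11 was also higher at P18 in C1qa-detected members, at 0 and 57.7 CPM, whereas Mgst1 (6.42 and 7.95) and Gsr (25.7 and 17.9) were not.

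Under the same limits the genes with the largest ratio of P11 to P18 were Ccl12, Cxcl10, Rhobtb1, Slc40a1, Rasgrp3, Cmah, Ppbp, Pon3, Rgs7bp, Ednrb, Gpr34, Syngr1, Cnrip1, Tanc2 and P2ry12. Egr1 and Mucl1, at 179 and 3.44 CPM but in 1.66% of P11 members, did not meet them. P2ry12, an ADP receptor best known from microglia, was at 115 CPM (103 to 129) in 58.5% of members at P11 and 15.3 CPM (10.4 to 21.6) in 11.3% at P18. Gpr34, a lysophospholipid receptor, was at 189.5 and 23.1 CPM, and Ednrb, the endothelin B receptor, at 310.3 and 36.9 CPM. In C1qa-detected members these stood at 128 and 61.6, 209 and 93.5, and 344 and 147 CPM, so each remained at least 2-fold lower at P18 there.

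Markers of other cell types were measured in the members beside those of all other cells. The 12 stromal genes summed to 4291 CPM in members at P11 and 1202 at P18, against 127514 and 31321 CPM in all other kept cells. Of 11 tested, 6 were 2-fold lower at P18 and none higher, against 14.6% and 6.62% of all genes. Cartilage genes, with Col2a1 at 0 by the rule, summed to 45.9 and 12.8 CPM, endothelial genes to 7.23 and 46.7, and B-cell genes to 104 and 102, with Cd79a at 0 by the rule. T-cell receptor genes were at or near 0, and Nkg7 had 0 UMIs at P11 and 71.8 CPM at P18, all in members without C1qa. Erythroid genes summed to 21.0 and 49.2 CPM, against 2349 CPM in the other P18 cells. In C1qa-detected members the stromal genes summed to 4720 and 1851 CPM and the endothelial genes to 7.62 and 149. Of 10 stromal genes tested there, 6 were 2-fold lower at P18 and 1 was higher, against 4.27% and 2.46% of all genes. Without the 10% of members with most UMIs of these marker lists, the resident, classical monocyte and antigen presentation medians were -1.81, 3.53 and -0.20. Beyond that, the part of these markers in the differences above was not tested.

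**Figure D5:**
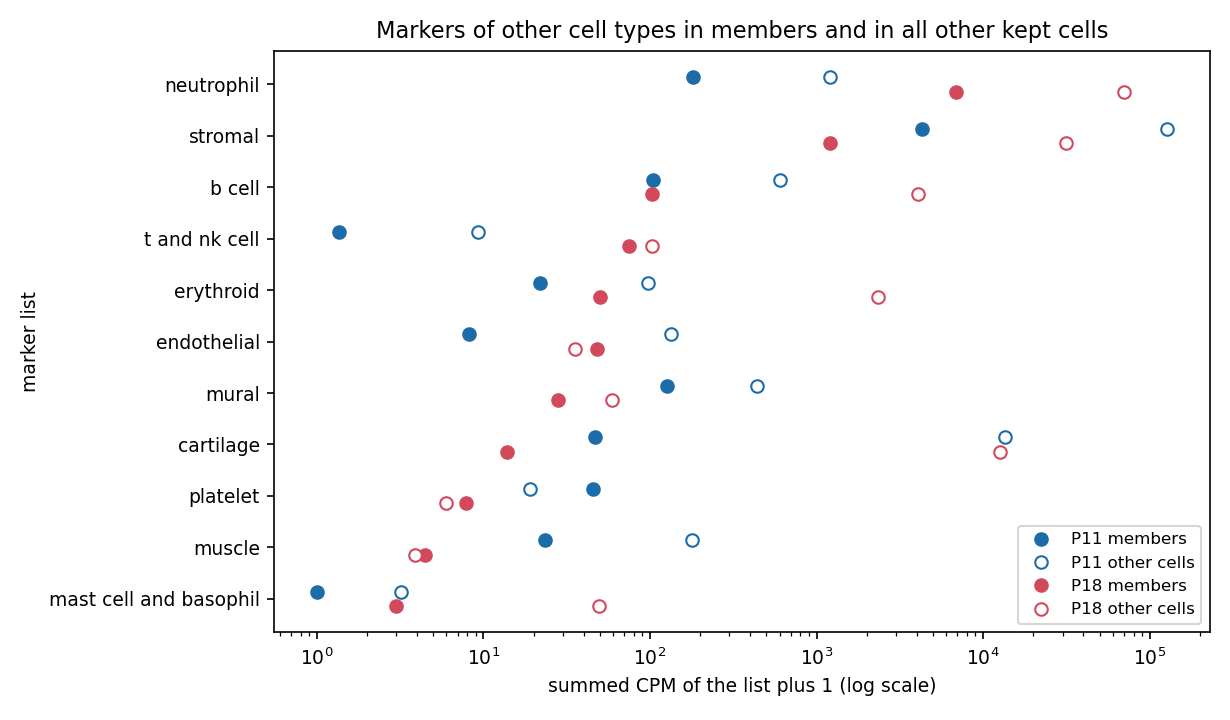
Summed CPM plus 1 of 11 marker lists on a log axis, in members (filled) and in all other kept cells (open) of P11 (blue) and P18 (red). Members lie below the other cells for the stromal, cartilage, neutrophil and B-cell lists at both ages, and above them for the platelet list at both ages and the endothelial and muscle lists at P18.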

How the data were processed

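The deposited droplet matrices hold raw counts of UMIs per gene and cell, written by matrix software 3.1.0 (P11, P18) and 3.0.2 (P56) per the file headers. The genome build is mm10 per the submitters' processing notes, and the aligner settings and annotation are not given in the sources used here. The deposited plate tables hold counts per gene and well.

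Counts were summed over members of each library in Python 3.11.15 (numpy 2.4.6, scipy 1.17.1, pandas 2.3.3, matplotlib 3.10.9). A gene was compared when it had at least 100 UMIs over both libraries and was counted as higher or lower at a 2-fold ratio of CPM. A gene at 0 in 1 library entered at 3 counts. Levels have exact Poisson, shares Clopper-Pearson and ratios conditional binomial 95% intervals. Shares of cells were also taken after thinning to 2000 UMIs, without shallower cells. The scripts were tested on simulated data.

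No doublet removal is stated in the labels. Automatic doublet calling (Scrublet in scanpy 1.11.5) marked 0.0339% of P11 and 0.0185% of P18 cells and was not used, and an alternative left out the 70 and 233 cells with the highest scores, 5 and 7 of them members.

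Genes named in full were those of the lists with the largest ratios or highest levels, the 15 highest and 15 lowest ratios among genes found in at least 10% of members and at 2 times the level of other cells, and the 10 on each side of the C1qa comparison; some genes that met these rules are not reported here. The members and lists were chosen with earlier results of these data known. Promoters were looked up in RefSeq for 6 genes, of which 5 matched; C1qa was the other. Alternatives changed the member rule, scaling, averaging and UMI minimum. Those without the granule-protease or class II members, and with Col2a1 allowed, were chosen after seeing the data.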

Additional observations from a re-analysis of the deposited data

Results flagged for a closer look

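Of the lists compared between members with and without C1qa, 3 stood on opposite sides of equality at the 2 ages; the difference between ages was not tested. The summed antigen presentation genes had a log2 ratio, C1qa-detected over undetected, of -2.56 at P11 and 0.77 at P18. Immediate-early and stress genes had -0.05 and 1.92, and Fc, pattern and scavenger receptor genes 0.31 and -0.04. The P11 values rest on 21 members without C1qa. Class II UMIs came almost all from 26 members at P11 and 20 at P18, with C1qa detected in 15 and 10 of them.

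The P56 library, which gave no member, held 14 UMIs of Csf1r in 14 cells and 236 UMIs of Lyz2 in 78 cells, above what a count of 0 allows. No cell with Csf1r also had Lyz2 or Tyrobp, and 129 of the Lyz2 UMIs were in 1 cell.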

How the results depend on the processing

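With 1 library per age, leaving out a replicate was not possible. No paired analysis was possible because the ages share a single replicate number. The resident macrophage median stayed below 0 and the classical monocyte median above 0 under every alternative run, while the antigen presentation median took both signs; the cause was not tested. Depth limits genes under 100 UMIs and the 65 P18 members with C1qa. Removing the highest doublet scores moved no median or share outside its counting interval and no count of genes by over 1.5 times. The counting interval of a median was that of its middle gene. The doublet removal gave a monocyte median of 2.91. The 2 other limits on C1qa and Lyz2 each left 240 members at P11 and 186 at P18, against 241 and 186. The members were thus almost the same cells, and these limits could show little about the rule.

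With at least 2 UMIs of Csf1r the resident median was -1.56, the antigen presentation median -0.053 and the P18 share 2.21%. With 1000 or more genes per cell and a mitochondrial share up to 5%, 217 genes were higher and 343 lower. The monocyte median was then 1.15 and the shares 5.53% at P11 and 3.90% at P18. Without exclusion genes, 585 were higher and 1608 lower, the resident and antigen presentation medians were -2.49 and -0.94, and the shares 13.8% and 7.43%. With the rule applied after thinning, 231 were higher, the resident and antigen presentation medians were -1.18 and 0.30 and the shares 9.59% and 2.46%. Leaving out the 10% of members with most UMIs of other cell types gave medians of -1.81 (resident), 3.53 (monocyte) and -0.20 (antigen presentation). Averaging per-cell CPM gave -1.54 (resident) and 0.11 (antigen presentation), and median-of-ratios scaling -0.21 (antigen presentation).

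Among members with C1qa, 102 genes were higher and 177 lower, with medians of -0.27, 0.13 and 0.89 for the resident, monocyte and antigen presentation lists. Among members without it, 241 were higher and 161 lower, with -0.40, 0.27 and -2.63. A minimum of 300 UMIs gave 183 and 323 genes, one of 20 UMIs 715 and 1987, and none 1075 and 2716. Among alternatives chosen after seeing the data, leaving out granule-protease members gave -1.49 (resident) and 0.19 (antigen presentation), and allowing Col2a1 gave shares of 13.5% and 5.02%. Leaving out class II members gave 1.70 (antigen presentation). Those members were picked by H2-Aa, H2-Ab1, H2-Eb1 and Cd74, genes of that list, and held 99.5% and 97.9% of their UMIs. The value thus rests on the few UMIs left of these genes and on the rest of the list.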
